A study of Sus scrofa with 6 samples.

Results

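The interferon response and antigen presentation genes were followed in 6 keratinocyte clones of the pig (Sus scrofa), 3 grown from cornea and 3 from conjunctiva, on Affymetrix porcine arrays. The set was chosen by symbol: 40 listed genes, plus every gene whose symbol starts with SLA-, the swine leukocyte antigens that form the pig's major histocompatibility complex (MHC). Of the 40 listed symbols, 29 had a probe set that named that gene alone, and 12 SLA genes were added, which gave 41 genes of the 6765 that the array names in this way. BST2, CXCL10, IFI44, IFI6, IFIH1, IFIT5, OAS2, OASL, PSMB9, TAP2 and UBA7 were not measured. Each gene was represented by its probe set with the highest mean over the 6 arrays, and the choice used no difference between clones. By role, 20 genes are antiviral (effectors, sensors and transcription factors of the interferon response), 6 belong to MHC class I, 9 to class II, and 6 supply and load peptides.

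The clones came from white domestic pigs, with corneal biopsies described as central and a stated distance of 6 mm from the limbus. Each clone descends from 1 hand-picked cell kept on a feeder layer of irradiated mouse fibroblasts (3T3-J2), so each array reports 1 clone. The labels name 2 animals without saying which clone came from which, and give no treatment, so no clone is labelled as having received interferon or virus. The run files of all 6 arrays name a project on a time course of irradiation. The labels say nothing of one, so whether any clone was irradiated is not known here. The animals' age was not given in the sources used here. All values are log2 values made by the authors with the robust multi-array average (RMA), in which a difference of 1 is 2-fold, and levels of different genes are not set against each other because probe sets differ in response.

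Cells that sense viral RNA secrete type I and type III interferons, which act through JAK kinases and a transcription factor complex that holds STAT2 and IRF9 to switch on a shared set of antiviral genes. Interferon gamma acts in part through IRF1, and also raises the genes of antigen presentation. In every nucleated cell the proteasome cuts proteins into peptides, TAP pumps them into the endoplasmic reticulum, tapasin helps to load them, and class I heavy chains with beta-2-microglobulin carry them to the surface. Class II molecules are made mainly by professional antigen-presenting cells under the control of CIITA, although epithelial cells can be induced to make them. The cornea and conjunctiva are surface epithelia that meet viruses directly, and both are known to mount this response.

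The labelled cell type was visible in its markers, of which 12 of 26 were measured. The desmosome gene DSP lay between 11.61 and 12.50, the adhesion gene CDH1 between 10.58 and 11.57, PERP between 12.99 and 13.50 and SFN between 12.46 and 13.05. KRT5, KRT14 and TP63 were not measured. The pan-leukocyte gene PTPRC stayed between 3.11 and 3.61, below the median probe set level of 4.45. Of the measured markers, 11 of 12 for keratinocytes, 10 of 17 for fibroblasts and keratocytes and 5 of 24 for leukocytes reached that level. Over all named genes 4993 of 6765 did. THY1, on the fibroblast and keratocyte list, was also bright, with a mean of 10.82. Array medians lay between 4.40 and 4.48. In such pooled RNA, a smaller share of cells of 1 kind and less RNA per cell cannot be told apart.

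Conjunctival and corneal clones did not differ detectably in any of these genes, and 1 clone, conjunctiva 2, carried a high level of many antiviral genes. In the comparison of tissues by limma, 0 of the 41 genes passed an adjusted p of 0.05, as did 0.0% of all 23999 probe sets tested. At an unadjusted p under 0.05 the count was also 0, against 2.7% of all probe sets. Tissue means were at least 2-fold apart for 0 of the 41, against 0.887% of all named genes. The 95% confidence interval lay within a 2-fold difference for 29 of the 41, against 89.3% of named genes and for 10 of the 20 antiviral genes.

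The antiviral genes were more often higher than lower in conjunctiva. The difference was above 0 for 16 of 20, with a median of 0.17, against 53.5% and a median of 0.014 over all named genes. Without conjunctiva 2 the count was 12 of 20 and the median 0.013. Of class I genes 4 of 6 lay above 0 (median 0.095, and -0.051 without conjunctiva 2), of class II genes 3 of 9 (median -0.061), and of peptide supply and loading genes 5 of 6 (median 0.22, 0.12 without conjunctiva 2 and 0.029 without cornea 1). The 3 values of each tissue did not overlap for 3 of the 41 genes, all lower in conjunctiva, against 3.16% of named genes in that direction, 3.55% in the other and 6.71% in either.

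**Figure D1:**
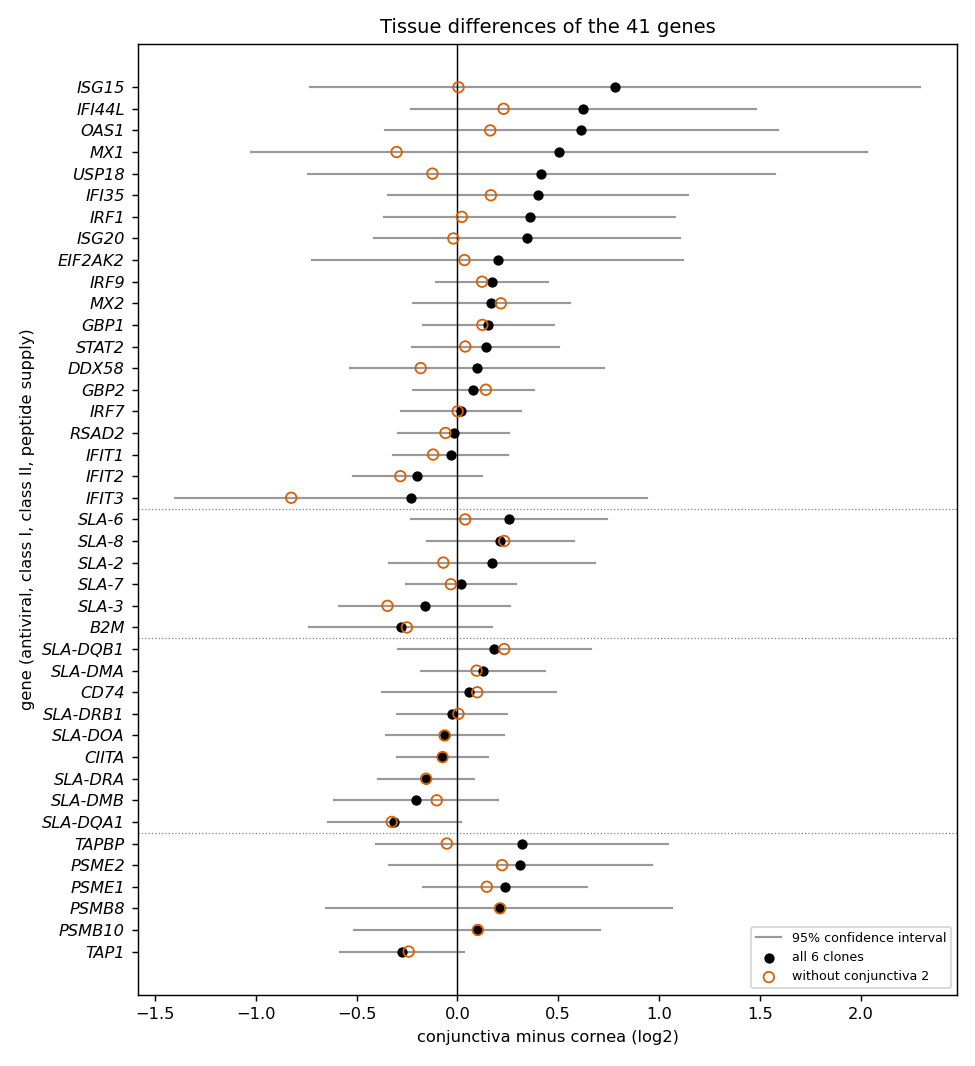
Difference in log2 RMA value between the conjunctival and the corneal mean for each of the 41 genes, with its 95% confidence interval by limma (grey), and the same difference without conjunctiva 2 (open orange circles). Dotted lines part the antiviral, class I, class II and peptide supply genes. Every interval includes 0, and ISG15, MX1, USP18 and TAPBP move to 0.0052 or below without that clone.

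Among the antiviral effectors, ISG15, a ubiquitin-like protein that is joined to other proteins after interferon, stood at 7.75, 7.07 and 7.55 in corneal clones 1, 2 and 3 and at 7.67, 9.79 and 7.26 in the conjunctival ones. Conjunctiva 2 was thus 4.11-fold above the next highest clone, while the other 5 overlapped across the tissues. The tissue difference was 0.78 (SE 0.63, limma adjusted p = 0.9999), and 0.0052 without conjunctiva 2.

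MX1, a GTPase that acts on viral nucleoproteins, was also highest in conjunctiva 2. It stood at 4.58, 4.83 and 5.09 in cornea and at 4.61, 6.95 and 4.45 in conjunctiva. Conjunctiva 2 was 3.63-fold above the next clone, cornea 3. Its neighbour on the chromosome, MX2, which lay below the median probe set level, stood at 4.13, 3.77 and 4.13 in cornea and at 4.02, 4.09 and 4.44 in conjunctiva, with conjunctiva 3 highest.

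USP18, the protease that removes ISG15 from proteins and damps interferon receptor signalling, was at 5.57, 5.20 and 4.94 in cornea and at 5.52, 6.73 and 4.70 in conjunctiva. IFI44L, another interferon-induced gene, was at 5.17, 5.73 and 5.84 in cornea and at 5.78, 6.99 and 5.84 in conjunctiva. Conjunctiva 2 led the next clone 2.23-fold in both. The tissue difference of IFI44L was 0.62 (SE 0.36, limma adjusted p = 0.9999, and 0.23 without conjunctiva 2).

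OAS1, a synthetase whose product activates RNase L, was dim in most clones, at 3.54, 3.37 and 3.27 in cornea and at 3.97, 4.91 and 3.15 in conjunctiva. Both the highest and the lowest value were conjunctival. Its difference was 0.61 (SE 0.41, limma adjusted p = 0.9999, and 0.16 without conjunctiva 2). ISG20, an exonuclease that degrades RNA, reached 5.01 in conjunctiva 2, against 3.73 to 4.22 in the remaining 5 clones.

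The 3 measured IFIT genes encode RNA-binding proteins that block viral translation and sit next to each other in the RefSeq gene order. Only IFIT3 had a mean above the median probe set level. Conjunctiva 2 was highest in IFIT3 and IFIT1 and not in IFIT2. IFIT3 was at 4.86, 5.09 and 5.31 in cornea. In conjunctiva it held both the highest and the lowest value, at 4.51, 6.05 and 4.02. IFIT1 kept between 3.89 and 4.21 and IFIT2 between 4.13 and 4.60 in the 6 clones. The tissue difference of IFIT2 was -0.20 (SE 0.13, limma adjusted p = 0.9999, and -0.12 without cornea 3). Of the 4 other probe sets of IFIT1 and IFIT2, 2 had the same sign of difference as the one used. Another probe set of IFIT2 had conjunctiva 2 highest, by 0.29, and the remaining one had conjunctiva 3 highest, by 0.0014.

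RSAD2, which encodes viperin, was the flattest antiviral gene, between 3.06 and 3.32 in all 6 clones. Its mean of 3.19 lay below the median probe set level and above that of only 14.1% of probe sets. The array also holds 3 control probe sets for it, left out of the fit, of which the one with the highest mean lay between 4.55 and 5.10 with cornea 3 highest. The guanylate-binding protein genes GBP1 and GBP2 lay between 3.78 and 4.17 and between 3.14 and 3.52, both below the median probe set level. EIF2AK2, the kinase PKR that halts translation on double-stranded RNA, followed another order, at 7.71, 8.05 and 6.71 in cornea and 7.90, 8.02 and 7.15 in conjunctiva, with clone 3 of each tissue lowest.

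IFI35, an interferon-induced leucine zipper protein, was at 6.85, 7.48 and 7.91 in cornea and 7.62, 8.28 and 7.54 in conjunctiva, with conjunctiva 2 above cornea 3 by 0.36. DDX58, the RNA sensor RIG-I, was at 4.45 in conjunctiva 2 and between 3.49 and 4.02 in the others. Its second probe set put the same clone first, at 4.66, with the other 5 between 3.36 and 3.80.

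The transcription factors of the response split. IRF1, which drives interferon gamma targets, was at 6.17 in conjunctiva 2 and between 4.89 and 5.43 in the other clones. IRF9 lay between 4.69 and 5.01, its partner STAT2 between 3.66 and 4.25, and IRF7, which amplifies type I interferon, between 5.52 and 5.86. Conjunctiva 2 was highest in IRF9 and STAT2, by 0.0095 and 0.18, and not in IRF7.

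**Figure D2:**
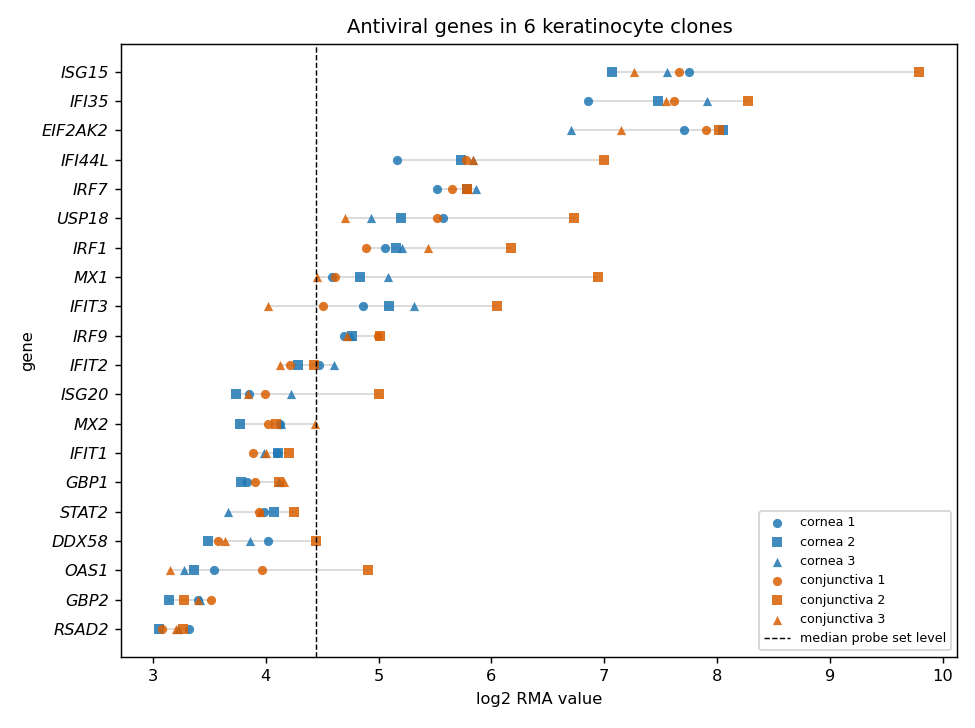
Log2 RMA value of each of the 20 antiviral genes (rows) in each clone, with corneal clones in blue and conjunctival clones in orange, clone numbers 1, 2 and 3 as circle, square and triangle, and the median probe set level of 4.45 as a dashed line. Conjunctiva 2 (orange square) lies apart to the right in ISG15, MX1, USP18, IFI44L and OAS1, and inside the other clones in IFIT2, GBP2 and RSAD2.

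Counted over the antiviral genes, conjunctiva 2 was the highest of the 6 clones in 13 of 20 and the lowest in 0. Over all named genes it was the highest in 17.7% and the lowest in 14.8%. Its lead over the next clone was at least 0.5 for 8 of the 20, against 2.07% of named genes, and at least 1 for 4 of them (ISG15, MX1, USP18 and IFI44L), against 0.517%. No other clone led an antiviral gene by 0.5, against 1.02%, 1.24% and 0.517% of named genes for cornea 1, 2 and 3, and 0.813% and 0.473% for conjunctiva 1 and 3. The next most frequent highest clones were cornea 3 and conjunctiva 3, with 2 genes each, against 24.1% and 15.8% of named genes.

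The count was larger among brighter genes. Of the 10 antiviral genes whose mean reached the median probe set level, conjunctiva 2 was highest in 8 and led by at least 0.5 in 6, against 18.5% and 2.36% of named genes of such levels. Of the 10 dimmer genes these counts were 5 and 2. The range over the 6 clones, from the lowest to the highest, had a median of 1.63 in the brighter and 0.53 in the dimmer antiviral genes. Over all named genes it was 0.576, without a split by level. For ISG15 the range was 2.73, wider than that of 98.6% of named genes, and for MX1 2.49 (98.2%).

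Among class I genes, the heavy chains were measured by SLA-2 and SLA-3, which encode classical antigen-presenting chains, and by SLA-6, SLA-7 and SLA-8, which are non-classical. These genes are close in sequence, and the suffixes of several of their probe sets mark probes shared between transcripts, so the genes are uncertain as separate measurements. SLA-2 was at 8.55, 8.71 and 8.56 in cornea and at 8.62, 9.26 and 8.45 in conjunctiva. SLA-6 was at 7.27, 7.55 and 7.31 in cornea and at 7.45, 8.07 and 7.38 in conjunctiva. In both, conjunctiva 2 was highest, by 0.55 and 0.52, and the other 5 clones lay close together.

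SLA-3 followed less, at 8.23 in conjunctiva 2 and between 7.57 and 8.06 elsewhere. SLA-8 was highest in conjunctiva 3 (8.48) and lowest in cornea 1 (7.89), and SLA-7 was dim in all clones, between 3.46 and 3.72. The tissue differences of SLA-6 and SLA-8 were 0.26 (SE 0.20, and 0.038 without conjunctiva 2) and 0.21 (SE 0.15, and 0.093 without cornea 1), each at a limma adjusted p of 0.9999. The second probe set of SLA-6, at a mean of 3.34, had conjunctiva 2 lowest.

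Another 5 class I probe sets carry several gene symbols and name no gene here. The 2 bright ones put conjunctiva 2 first, at 9.71 against 8.29 to 8.57 in the other clones, and at 9.49 against 8.34 to 8.78. The 3 dim ones, between 3.45 and 4.28, did not.

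B2M, which encodes beta-2-microglobulin, the common light chain of class I, gave another picture. Its brightest probe set stood at 13.60, 13.04 and 12.93 in cornea and at 12.84, 12.85 and 13.04 in conjunctiva, so cornea 1 was highest by 0.56 and conjunctiva 2 was near the bottom. The tissue difference was -0.28 (SE 0.19, limma adjusted p = 0.9999, and -0.076 without cornea 1). The annotation ties 8 more probe sets to B2M, with means from 4.86 to 12.44. Of these, 3 had the same sign of tissue difference and 0 had cornea 1 highest, while conjunctiva 2 was highest in 4, among them one at 12.20 against 11.39 to 11.65 elsewhere. The level of B2M in a clone therefore rests on which probe set is read.

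The class II genes were not raised in conjunctiva 2. Conjunctiva 2 was highest in 0 of the 9 and lowest in 1, against the 17.7% and 14.8% of named genes. Another 3 class II probe sets carry several symbols and are dim, with means from 3.04 to 3.47, and conjunctiva 2 was highest in 2 of them, by 0.15 and 0.095. CIITA, the class II transactivator, was even, between 5.24 and 5.42 in the 6 clones. CD74, the invariant chain that fills the class II groove until loading, lay between 3.44 and 4.05, and SLA-DRA between 3.68 and 3.97, both below the median probe set level. SLA-DMA, which encodes a chain of the peptide exchange factor DM, was at 7.93, 7.74 and 7.80 in cornea and 8.09, 8.01 and 7.74 in conjunctiva. Its second probe set lay between 3.62 and 4.08, and SLA-DMB, the partner chain, between 4.49 and 5.18.

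SLA-DQA1, an alpha chain of the antigen-presenting DQ molecule, was at 4.71, 4.64 and 5.07 in cornea and at 4.44, 4.52 and 4.53 in conjunctiva, without overlap. The tissue difference was -0.31 (SE 0.14, limma adjusted p = 0.9999), and -0.18 without cornea 3. SLA-DRA, which also did not overlap, differed by -0.15 (SE 0.10), and SLA-DMB by -0.21 (SE 0.17, and -0.069 without cornea 3), both at an adjusted p of 0.9999 by limma. The DQ partner SLA-DQB1 went the other way, with conjunctiva 3 highest at 4.95. SLA-DOA and SLA-DRB1 lay between 3.63 and 3.98 and between 3.57 and 3.81.

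Of the genes that load peptides onto class I, tapasin was highest in conjunctiva 2 and the transporter was not. TAPBP, which encodes tapasin, was at 6.74, 6.89 and 6.72 in cornea and at 6.73, 7.85 and 6.74 in conjunctiva. Conjunctiva 2 was 1.94-fold above the next clone, and the other 5 lay within 0.17 of each other. TAP1, a subunit of the peptide transporter, was at 7.36, 7.63 and 7.32 in cornea and at 7.09, 7.10 and 7.31 in conjunctiva, without overlap. Its difference was -0.27 (SE 0.13, limma adjusted p = 0.9999, and -0.18 without cornea 2), and its other 2 probe sets had the same sign.

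The 4 proteasome genes of the set, immunoproteasome subunits and activator chains, shared their lowest clone, cornea 1, and not their highest. Proteasome subunits outside the set did not share it. In PSMA1, PSMA3, PSMA7, PSMB5, PSMB6 and PSMB7, from the list of other antigen presentation genes, cornea 2 was the lowest corneal clone. PSMB8, an immunoproteasome catalytic subunit, was at 4.57, 4.62 and 5.93 in cornea and at 5.13, 5.24 and 5.38 in conjunctiva. PSMB10, another such subunit, was at 5.44, 5.86 and 6.38 and at 5.74, 5.98 and 6.25. Cornea 3 was highest and cornea 1 lowest in both. Over all named genes cornea 3 was the highest clone in 24.1%.

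PSME1 and PSME2, which encode the 2 chains of the proteasome activator PA28, shared the lowest clone. PSME1 was at 7.39 in cornea 1 and between 7.73 and 8.10 in the others. PSME2 was at 7.82 in cornea 1, at 8.14 and 8.16 in cornea 2 and conjunctiva 1, and between 8.73 and 8.76 in the other 3. Cornea 1 was thus lowest in 4 of the 4 proteasome genes of the set, against 18.3% of named genes. The tissue differences were 0.24 (SE 0.17, and 0.086 without cornea 1) for PSME1 and 0.31 (SE 0.27, and 0.10 without cornea 1) for PSME2, each at a limma adjusted p of 0.9999.

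**Figure D3:**
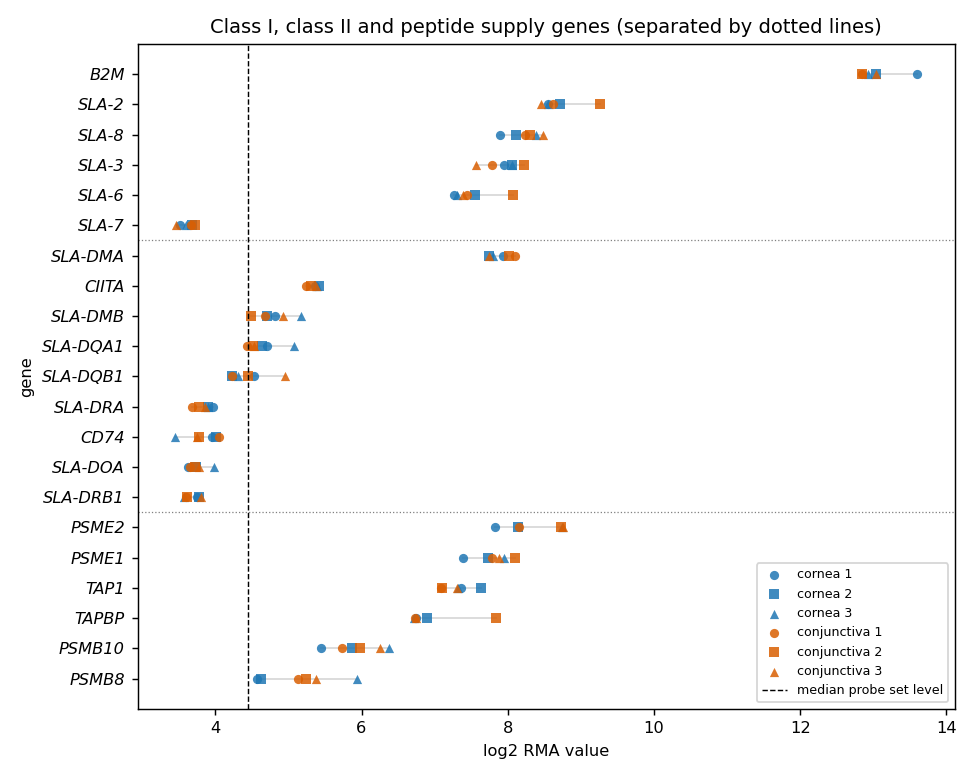
Log2 RMA value of each class I (top), class II (middle) and peptide supply and loading gene (bottom) in each clone, with corneal clones in blue, conjunctival clones in orange, clone numbers as circle, square and triangle, and the median probe set level of 4.45 as a dashed line. Conjunctiva 2 (orange square) lies apart in SLA-2, SLA-6 and TAPBP, cornea 3 is highest in PSMB8 and PSMB10, and among class II genes conjunctiva 3 leads SLA-DQB1 by 0.42 and cornea 3 leads SLA-DQA1 by 0.36.

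The roles were then set side by side within each clone, as the mean deviation of a list's genes from their own 6-clone means. Antiviral genes lay 0.64 above in conjunctiva 2 and between -0.21 and -0.065 in the other 5. The 5 SLA class I genes were at 0.32 in conjunctiva 2 and between -0.16 and 0.0245 elsewhere. Class II genes spanned -0.066 to 0.052, with conjunctiva 1 and 2 at the low end. The 4 proteasome genes of the set ran from -0.52 in cornea 1 to 0.43 in cornea 3, with conjunctiva 2 at 0.19.

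In conjunctiva 2 the antiviral mean exceeded that of the SLA class I genes by 0.32, that of all 6 class I genes by 0.41, that of class II by 0.70 and that of peptide supply and loading by 0.39. In the other 5 clones these gaps were smaller, between -0.18 and 0.032 for the SLA class I genes and between -0.26 and -0.023 for class II. Against peptide supply and loading they ran from -0.34 in conjunctiva 3 and -0.32 in cornea 3 to 0.24 in cornea 1. The mean of all named genes stayed between -0.022 and 0.0196 in the 6 clones.

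**Figure D4:**
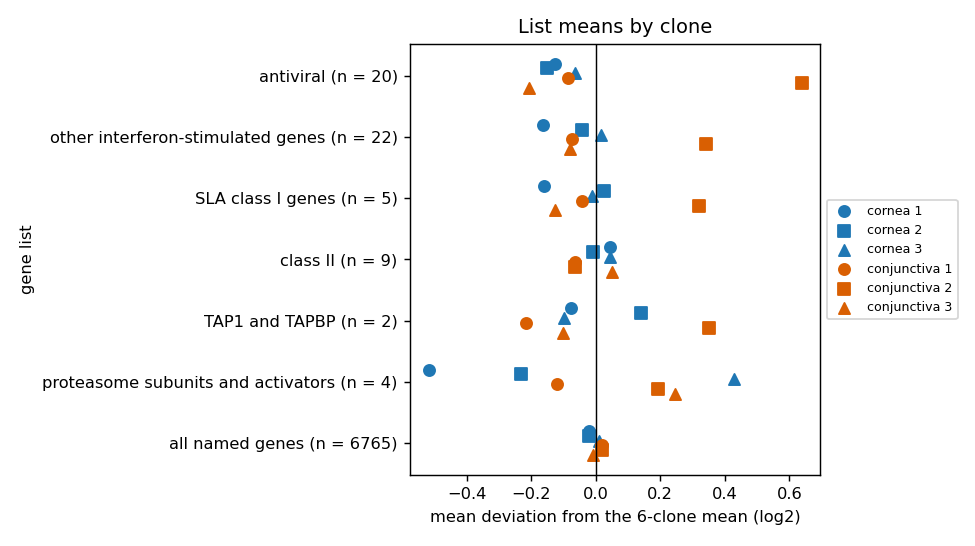
Mean deviation (log2) of each gene list from its genes' 6-clone means, by clone, with corneal clones in blue, conjunctival clones in orange and clone numbers as circle, square and triangle, offset vertically for legibility. Conjunctiva 2 lies at 0.64 for antiviral genes, 0.34 for other interferon-stimulated genes, 0.32 for SLA class I genes and -0.066 for class II. The mean of the set's proteasome genes is lowest in cornea 1 and highest in cornea 3.

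Other genes of the pathway were read from separate lists. Of 56 further interferon-stimulated symbols, 22 were measured, and 0 of these passed an adjusted p of 0.05 by limma in either direction (0 at an unadjusted p under 0.05). Conjunctiva 2 was highest in 11 of the 22, against 17.7% of named genes, and led by at least 0.5 in 4, against 2.07%. These 4, chosen after their values were seen, were ISG12(A), PARP9, LGALS9 and PARP12. ISG12(A), a small interferon-induced membrane protein gene, was at 10.39 in conjunctiva 2 and between 7.35 and 8.56 in the others, and PARP9 at 5.80 against 4.51 to 4.75. The list's genes with the smallest p for the tissues were ICAM1, an adhesion molecule gene (difference -0.82, limma adjusted p = 0.9999, and -0.52 without cornea 3), and PARP12 (0.39, limma adjusted p = 0.9999, and 0.13 without conjunctiva 2).

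The upstream genes showed less of this order. Of 23 signalling symbols 16 were measured, with 0 past the adjusted threshold, and their mean deviation in conjunctiva 2 was 0.11. The interferon genes among them were dim in every clone, IFNA1 between 4.05 and 4.31, IFNB1 between 3.00 and 3.24 and IFNG between 3.17 and 3.61. No type III interferon gene was among the signalling genes measured. Of 24 sensing symbols 10 were measured, again with 0 past the threshold, and they lay at -0.0024 in conjunctiva 2. Of 41 other antigen presentation symbols, a list apart from the upstream genes, 27 were measured with 0 past the threshold. Conjunctiva 2 was highest in 11 of the 27, against 17.7% of named genes, with a mean deviation of 0.11. It led by at least 0.5 in 0 of them, against 2.07% of named genes. FCGRT, an Fc receptor gene with a class I fold, had the smallest p of that list, with a difference of 0.31 (limma adjusted p = 0.9999, and 0.20 without conjunctiva 2).

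Genes with several probe sets were read in all of them. Of the 41 genes, 13 had more than 1 probe set, which made 67 in all. Where conjunctiva 2 led, it was also highest in the second probe set of DDX58 and in 1 of the 2 others of IFI44L and of IFIT1. The highest clone was the same in 1 of 1 for MX2 and IRF7, in 1 of 2 for GBP1 and SLA-DRB1, and in 0 of the other probe sets of IFIT2, B2M, SLA-6, SLA-8, SLA-DMA and TAP1.

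**Figure D5:**
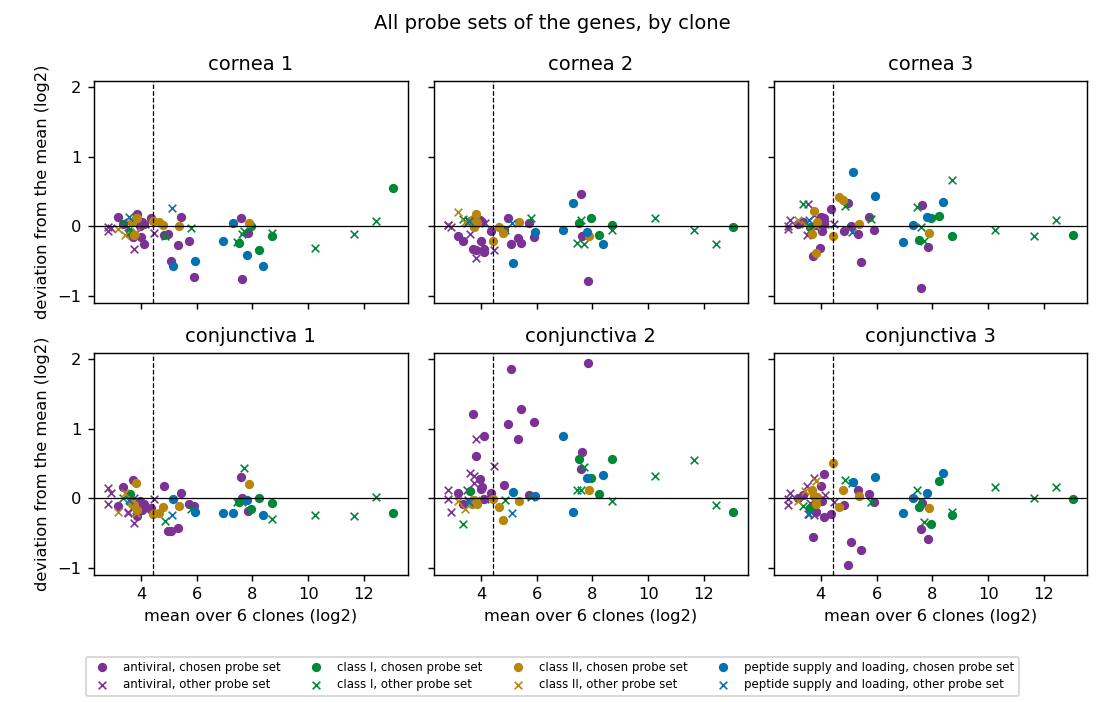
Deviation of each of the 67 probe sets of the 41 genes from its 6-clone mean (vertical axis, log2) against that mean (horizontal axis, log2), in 1 panel per clone, with filled points for the probe set used and crosses for other probe sets of the same gene, coloured by role, and the median probe set level as a dashed line. The upward spread of antiviral probe sets is seen in the panel of conjunctiva 2, where ISG15 and MX1 lie highest, while class II probe sets stay near 0 there.

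Conjunctiva 2 also stood apart in genes outside these roles, some by more. By the size of its lead ISG15 ranked 9 and MX1 11 among the 1197 genes it led, and MMP7, a matrix metalloproteinase gene, and SPP1, which encodes osteopontin, came first, at 5.42 and 3.05 above the next clone. These 2 were named after their values were seen. It led 35 named genes by at least 1, of which 4 were antiviral genes described above, 2 were other interferon-stimulated genes, 2 were fibroblast and keratocyte markers (THY1 at 12.24 against 9.66 to 11.23, and DCN at 8.48 against 5.61 to 6.99) and 1 was a leukocyte marker (LAPTM5, at 8.71 against 6.98 to 7.71). Over the 17 measured of 22 fibroblast and keratocyte markers, summed log2 levels ran from 94.5 to 99.5 in cornea and from 94.98 to 101.04 in conjunctiva, with conjunctiva 2 highest. Of the 17, however, conjunctiva 2 lay above the 6-clone mean in 7, was highest in 3 and lowest in 4. Its median deviation was -0.068. Of the 10 that reached the median probe set level, it lay above the mean in 6, was highest in 3 and lowest in 0. Its median deviation over these 10 was 0.055, and its mean deviation was 0.42, against 0.20 or less in the other clones. LUM stayed between 2.82 and 2.95 in the 6 clones. Over the 24 measured of 37 leukocyte markers, summed log2 levels ran from 100.1 to 107.1 in cornea and from 100.4 to 105.1 in conjunctiva. Cornea 3 was highest. PTPRC, CD3E and SPI1 did not exceed 3.96 in any clone. Without conjunctiva 2 the tissue difference fell from 0.82 to 0.47 for CD86 and from -0.21 to -0.68 for AIF1. For CORO1A and CTSW it rose, from -0.20 to -0.17 and from -0.19 to -0.090. Only 5 of the 24 reached the median probe set level. Over these 5 the mean deviation was 0.51 in conjunctiva 2, 0.29 in cornea 3 and at most 0.020 in the other clones. Conjunctiva 2 was highest in 2 of the 5 and lowest in 2. The part of these markers in the antiviral levels was not tested.

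RNA quality and array runs were read beside it. The difference between 3' and 5' probe sets of GAPDH was 0.97 in conjunctiva 2 and between 0.25 and 0.60 in the other clones, and that of actin, 0.93, lay within the range of the others, 0.46 to 1.11. The part of this in the antiviral levels was not tested. Conjunctiva 2 was washed on fluidics station 1 together with cornea 1 and conjunctiva 3, whose antiviral means were -0.13 and -0.21. Within station 1 the median antiviral difference between tissues was 0.17 and within station 2, without conjunctiva 2, it was -0.027.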

How the data were processed

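Total RNA of each clone went through 1 round of amplification with biotin labelling and onto 1 array. The deposited values are log2 values that the authors made with RMA, per the submitters' processing notes. The RMA version was not given in the sources used here. RMA equalises the arrays' distributions, which hides any change in a cell's total RNA. Leaving out 124 control probe sets left 23999, tested without a filter on low values. Of these, 10069 carried 1 gene symbol, 198 several and 13732 none in the annotation table. The gene IDs of all 41 genes were found in the RefSeq table (Sscrofa11.1), with 41 symbols as before, and no coordinates are given because no build was tied to the probe sets. The settings files of the array runs, deposited with the arrays, gave the fluidics station as another kind of value, with no measurement.

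Conjunctiva minus cornea was fitted in R 4.3.3 by limma 3.58.1 (linear model with eBayes, two-sided, Benjamini-Hochberg over all probe sets), a procedure tested on simulated data. Standard errors and intervals are the moderated ones. For single values, the exact permutation test of 3 against 3 cannot go below p = 0.1 and was not used. The number of arrays limits the precision. Members and lists were chosen with earlier results of these data known, so no p is adjusted over a list. Tissue differences are given for the 3 genes of each role with the smallest p and up to 2 of each further list. That of ISG15, and the other genes named from further lists, were added after their values were seen. The alternatives were blocks for the clone number, the fluidics station and module, fits within a station, trend and robust options, array centring, a filter on level, other probe sets and each clone left out. Clone numbers are shared between tissues, and clones of one number deviated together from their tissue's mean (r = 0.354, 0.169 and 0.349 across probe sets), which is a hint from the data, since the labels do not say what a number means, so the number was also fitted as a block. The clones were picked from mass cultures, and the labels do not tie a clone to a mass culture or an animal, so the p-values measure only the spread between these samples.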

Additional observations from a re-analysis of the deposited data

How the results depend on the processing

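None of the 67 probe sets of the 41 genes (36 under the filter on level) passed an adjusted p of 0.05 by limma in any fit of probe sets, nor did any of the 41 genes in the 2 fits by gene. This includes the clone number as a replicate block (count 0, antiviral median 0.17, adjusted p of the named genes from 0.938 to 0.943), which changed no call. Over all probe sets the count was 0, but 2 with limma's trend and robust options and 1 when 1 probe set per gene was tested, and 0 in every fit without 1 clone (range 0 to 0). At an unadjusted p, a count added after seeing the data, 0 to 3 of the 41 passed without 1 clone, 5 within station 1 and 2 within station 2, where 1 array of a tissue stands alone and is assumed to vary like the others. The median difference ran, without each clone in turn, from 0.013 to 0.24 for antiviral, from -0.051 to 0.13 for class I, from -0.093 to -0.04 for class II and from 0.029 to 0.35 for peptide supply and loading genes. The last was 0.64 within station 1 and -0.22 within station 2, the class I median was -0.0079 within station 2, and class II was -0.16 within station 2 and -0.14 over probe sets at or above the median level, a filter that moved the antiviral median to 0.38 and class I to 0.17. Within station 2 the differences of IFI44L, SLA-8, PSME1 and PSME2 turned to -0.0087, -0.0042, -0.054 and -0.29, and that of SLA-6 turned to -0.033 as a mean of all its probe sets, which also gave 0.0078 for the class I median, 0.31 for IFI44L, -0.074 for IFIT2 and -0.0026 for B2M. The causes were not tested; each station holds 3 arrays. With the module number as a random block, added after seeing the data, the medians kept their sign. After array median centring the genes higher in conjunctiva were 17 of 20 antiviral, 4 of 6 class I, 3 of 9 class II and 5 of 6 peptide genes, against 59.5% of all named genes.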
